A study of Mus musculus with 27 samples.

Results

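The 34 entries described here are fragments of transfer RNA (tRNA), the adaptor of translation. They are the entries that the authors' table of small RNAs puts in the class tRF5 or tRF3, and the class alone was used to choose them. Of 1013 entries, 14 were tRF5 and 20 were tRF3. Mouse cells of 3 kinds were separated into chromatin, soluble nucleoplasm and cytoplasm and their small RNA was read, with 3 libraries in each of the 9 groups and 27 in all. mESC is the embryonic stem cell line E14, kept with LIF on gelatin. mNPC are neural progenitors of a line established by the submitters, grown with EGF and FGF at 10 ng/ml. mCtx are primary cortical neurons held 5 days in culture, which may include other cells of the cortex. mESC and mNPC are each 1 line, and no group carried a deletion, transgene or drug according to the labels. Libraries of 1 group are labelled as biological replicates, but nothing says that they came from separate cultures, so p-values measure only how far these libraries spread, which may be technical.

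A tRNA gene is transcribed by RNA polymerase III from promoter parts that lie inside the gene, the A box and the B box. The transcript is trimmed at both ends, receives a CCA tail and is modified and charged with its amino acid. Enzymes such as angiogenin and Dicer can cut it into pieces: a fragment of the 5′ type holds the start of the tRNA, and one of the 3′ type holds its end with the CCA tail. Fragments of the 3′ type can pair with the primer binding sites of LTR retroelements and hinder their reverse transcription, and fragments of the 5′ type can reduce translation. In the names used here the amino acid comes first, then the anticodon, then a number for the sequence variant and a number for the gene copy, so that copies with the same first number have the same mature sequence. Reads within the mature tRNA cannot tell such copies apart. Where copies have different values here, the difference depends on an assignment rule that is not given in the sources used here.

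Values are RPM, reads scaled by the authors to the same library size. They are shares of a library and give no amount per cell, and in bulk samples fewer cells of a type and less RNA per cell cannot be told apart. Summed over entries, they came to 73.9% to 97.4% of the total that the unit implies. Each library had a lowest value above 0, between 5.16 and 59.1 RPM, with anything lower listed as 0. In mESC chromatin this lowest value was 45.2 to 54.8 RPM and in mCtx cytoplasm 8.4 to 18.6 RPM, so a 0 does not mean the same level in every group, and it is not read as absence. Read depth is not known, so no counting interval is given. Between 6 and 24 of the 34 fragments were above 0 in a library. The labels were checked against miRNAs of each cell type: the 17 entries of the stem cell list summed to between 19861 and 93945 RPM in mESC and were all at 0 in mNPC and mCtx. The progenitor list of 8 entries did not separate the neural cells, with 35131 to 111415 RPM in mNPC and 45790 to 139917 in mCtx, against at most 925 in mESC. The neuronal list of 20 entries reached 17308 to 49544 RPM in mCtx against at most 1450 in mNPC and 977 in mESC. The endothelial and mesenchymal list, with 3 of its 4 entries above 0, held 2192 to 3975 RPM in mCtx, 112 to 345 in mNPC and 949 to 7524 in mESC, and the microglial and blood list held up to 44.5, 0 and 1774. The oligodendroglial list held up to 101 RPM in mCtx, 288 in mNPC and 0 in mESC. What part other cells had in the fragment levels was not tested.

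The type label went with the strand of the tRNA gene. Of the 20 tRF3 entries 19 lay on the plus strand, and of the 14 tRF5 entries 13 lay on the minus strand, while the 193 entries of the tRNA class were split 106 to 87. The exceptions were tRNA-His-GTG-2-1-tRF3 on the minus strand and tRNA-His-GTG-2-3-tRF5 on the plus strand. For the other 32 entries, type and strand cannot be told apart. The position given for an entry is that of the whole tRNA gene, 33 of the 34 matching a RefSeq tRNA gene of GRCm38.p6 at both ends, so that the end of the tRNA from which the reads came could not be checked. Whether the labels mark 5′ and 3′ ends was not tested, and tRF5 and tRF3 are used below as the names of the authors' classes. tRNA-Asn-GTT-3-4-tRF3 and tRNA-Asn-GTT-3-5-tRF5, labelled as opposite types, had the same value in all 27 libraries to within 0.001 RPM.

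**Figure D1:**
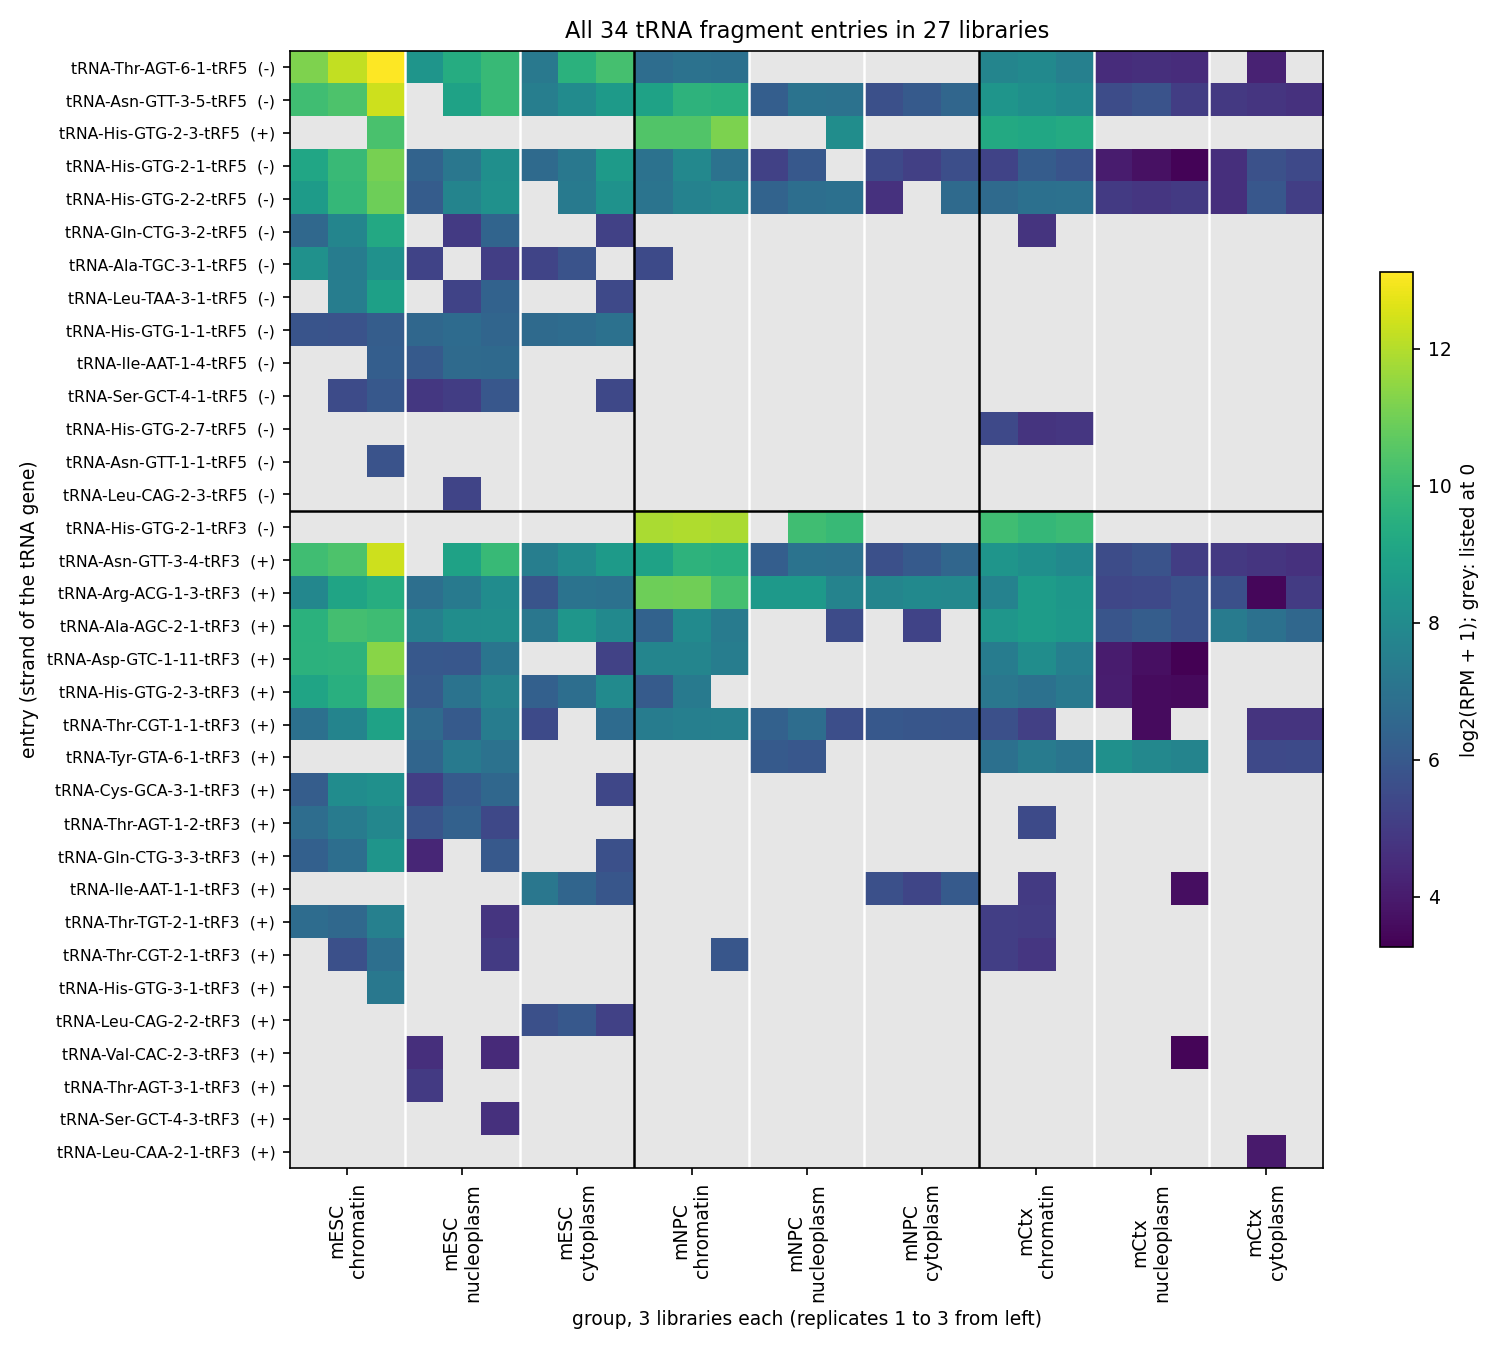
Each row is a fragment entry, with the strand of its tRNA gene in parentheses and the tRF5 entries above the black line, and each column is a library, 3 for each group of cell type and fraction. Colour gives log2(RPM + 1) and grey a value of 0; tRNA-Arg-ACG-1-3-tRF3 is the only row with a value in all 27 libraries, and 12 rows have values in mESC alone.

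The 34 entries named 32 gene positions, 24 sequence variants, 18 anticodons and 13 amino acids, and 15 of them lay on chromosomes 3 and 13, which hold large tRNA gene clusters. Sequence was at hand for a pair of abundant fragments whose tRNA genes fall in RefSeq promoter windows of GRCm38.p6. They are shown because the internal promoter parts lie within the stretch that becomes the tRNA, and capitals mark the core of the A box and, for the first, of the B box.
tRNA-Ala-AGC-2-1 (chr13:21222586-21222657, plus strand, whole gene): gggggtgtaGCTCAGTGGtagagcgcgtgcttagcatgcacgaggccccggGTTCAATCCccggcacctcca
tRNA-Arg-ACG-1-3 (chr14:54517696-54517720, plus strand, bases 1 to 25): gggccagtgGCGCAATGGataacgc
The first gene is 72 bases long, with the A box core at bases 10 to 18 and the B box core at bases 52 to 60. In the second the A box core also spans bases 10 to 18. The cores were searched on both strands as GCNNANNGG and GTTCNANNC, which 48.1% and 9.32% of 32851 promoter windows of 300 bases hold. A match describes these letters only.

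All 3 cell types had their highest fragment share in chromatin, and mESC had more than mNPC, and mNPC more than mCtx, in each fraction's mean. As a percent of listed reads, the summed fragments of mESC made up 2.53% ± 1.89 of chromatin, 0.4% ± 0.238 of nucleoplasm and 0.299% ± 0.154 of cytoplasm (SD, n = 3). The corresponding shares were 1.11% ± 0.0812, 0.167% ± 0.0728 and 0.0603% ± 0.0106 for mNPC, and for mCtx 0.467% ± 0.0288, 0.0569% ± 0.0057 and 0.0354% ± 0.00468. In every cell type the lowest chromatin library lay above the highest library of the other fractions. Nucleoplasm and cytoplasm overlapped in mESC and not in mNPC or mCtx, and the chromatin libraries of mESC and mNPC overlapped, whereas those of mCtx lay below both.

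The mESC chromatin mean rests on libraries that differed widely, with fragment shares of 1.05%, 1.88% and 4.66% in replicates 1 to 3. Replicate 3 held the highest value of 19 of the 20 fragments listed in at least 2 of these libraries. It was also the highest for 15 of 21 fragments in mESC nucleoplasm and 8 of 13 in mESC cytoplasm. The plot of summed fragments shows this spread beside the tight groups of mCtx.

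**Figure D2:**
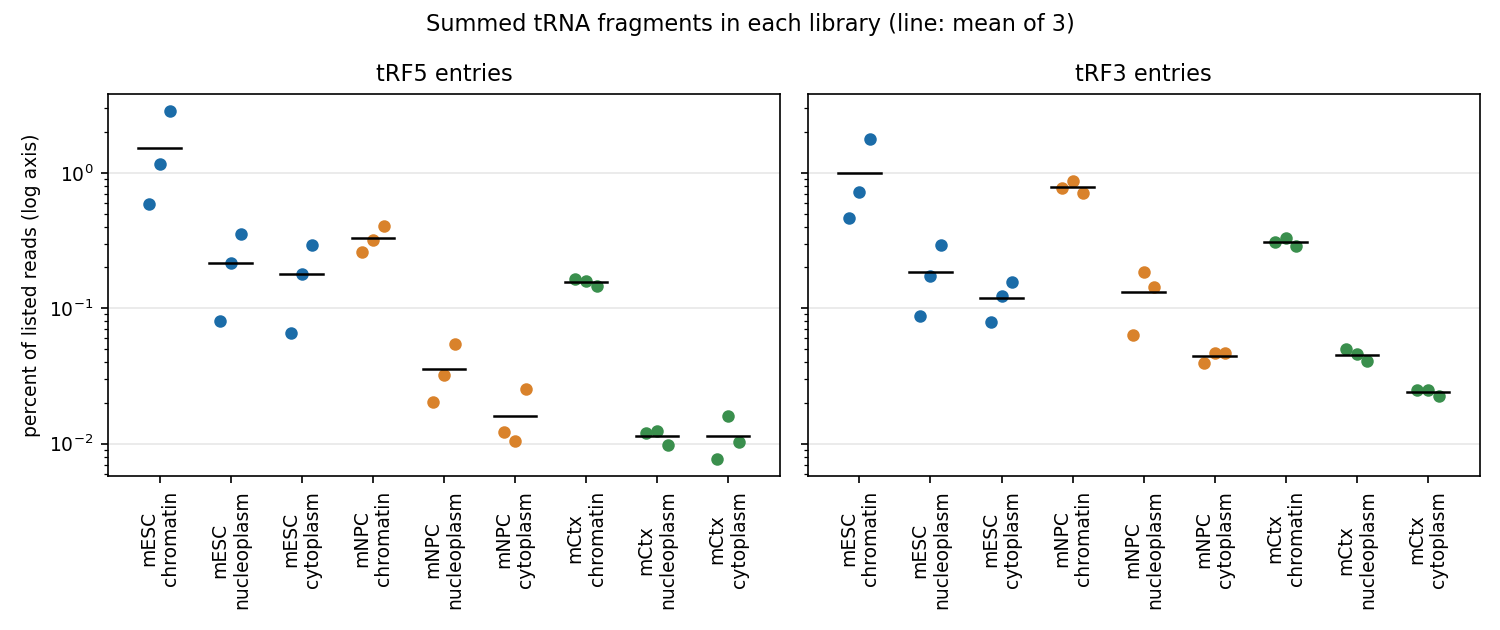
Points are libraries, with the summed RPM of the 14 tRF5 entries (left) or the 20 tRF3 entries (right) as a percent of the library's listed reads on a log axis, and lines are group means. Chromatin is highest in each cell type for both classes, and the mESC libraries spread more than those of mCtx.

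Entries of the tRNA class, whose reads are not known to be full-length tRNA, were also highest in mESC chromatin by mean but were highest in cytoplasm in mNPC and mCtx. They made up 16% ± 1.17, 12.3% ± 2.96 and 13% ± 4.79 of the reads in mESC chromatin, nucleoplasm and cytoplasm, 3.1% ± 0.295, 2.89% ± 0.496 and 4.19% ± 0.378 in mNPC, and 2.37% ± 0.16, 2.32% ± 0.107 and 11.3% ± 0.673 in mCtx. Of all reads listed under the tRNA or fragment classes, the fragment classes took 26.5% ± 1.94 in mNPC chromatin, 5.68% ± 2.83 in nucleoplasm and 1.41% ± 0.116 in cytoplasm. The same share was 16.5% ± 1.47, 2.4% ± 0.286 and 0.311% ± 0.0306 in mCtx, and 13.3% ± 8.92, 3.13% ± 1.92 and 2.74% ± 2.14 in mESC. Chromatin libraries thus had the highest share of the fragment classes among these reads in all 3 cell types, without overlap with the other fractions. The authors' rule for assigning reads to a tRNA or to a fragment entry is not given in the sources used here. The share thus compares the authors' classes and does not compare cut with whole tRNA.

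The balance of the classes changed with cell type. tRF5 entries held 59.6% ± 3.35 of the fragment RPM in mESC chromatin, 29.4% ± 5.88 in mNPC chromatin and 33.7% ± 1.06 in mCtx chromatin. In nucleoplasm the tRF5 share was 52.7% ± 4.16, 22.1% ± 6.56 and 20.1% ± 1.06, and in cytoplasm 56.6% ± 10.3, 25.7% ± 8.65 and 31.4% ± 7.79. The lowest mESC library, at 45.2%, lay above the highest of any neural group, at 39.3%. Sorted by strand in place of class, entries on the minus strand held 58.4% ± 2.92, 51.1% ± 0.629 and 44.3% ± 3.07 in chromatin of mESC, mNPC and mCtx. The lowest mESC chromatin library, at 55.7%, still lay above the highest neural one, at 51.7%. In mNPC nucleoplasm the minus-strand share was 24.3%, 63.3% and 67.7%, so mNPC overlapped mESC there. In cytoplasm and in mCtx nucleoplasm the shares by strand were the same as by class, with mESC above the neural groups. The 2 ways of sorting differ only in the exceptional histidine pair. Without that pair, the summed fragments made up 0.482% ± 0.0816 of listed reads in mNPC chromatin and 0.275% ± 0.0364 in mCtx chromatin.

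**Figure D3:**
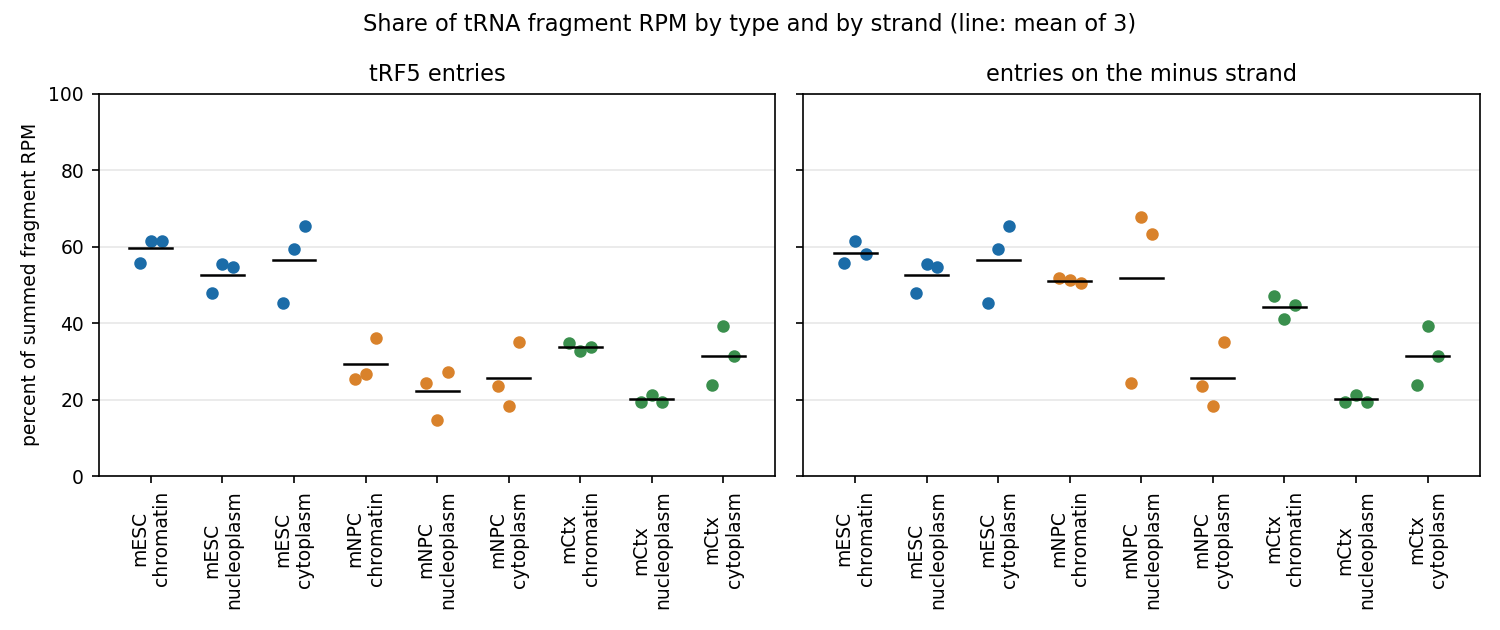
Points are libraries and lines are means of 3, with the share of the summed fragment RPM, in percent, held by tRF5 entries on the left and by entries on the minus strand on the right. By class, all 9 mESC libraries lie above the 18 neural ones, at 45.2% or more against 39.3% or less. By strand, mNPC and mESC libraries overlap in nucleoplasm, with mNPC at 24.3% to 67.7%. In chromatin, with means of 58.4%, 51.1% and 44.3% for mESC, mNPC and mCtx, and in cytoplasm, mESC libraries lie above the neural ones of the same fraction.

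A few fragments carried most of the signal. The 12 of highest mean RPM held 91.9% of all fragment RPM. By amino acid, histidine led with a summed mean of 1557 RPM over the 27 libraries from 8 entries of 1 anticodon, followed by asparagine with 1011 from 3 entries, threonine with 924 from 6, arginine with 380.3 from 1, alanine with 285 from 2 and aspartate with 213 from 1. Glutamine and tyrosine had 64.2 each, leucine 36.9, cysteine 31.9, isoleucine 30.5, serine 10.9 and valine 1.98 RPM. The histidine, asparagine, alanine, glutamine, leucine, isoleucine and serine entries came from both classes. So did those of threonine, where 5 of the 6 entries were tRF3, but the tRF5 entry held 778 of the 924 RPM. Arginine, aspartate, tyrosine, cysteine and valine had 1 entry each, of the class tRF3. The leading fragment differed between groups. It was a threonine tRF5 in all mESC fractions, with 27.9%, 19% and 27.3% of fragment RPM in chromatin, nucleoplasm and cytoplasm. In mNPC it was tRNA-His-GTG-2-1-tRF3 in chromatin and nucleoplasm, with 39.2% and 43.1%, and tRNA-Arg-ACG-1-3-tRF3 in cytoplasm, with 40.1%. In mCtx tRNA-His-GTG-2-1-tRF3 led in chromatin with 25.8%, tRNA-Tyr-GTA-6-1-tRF3 in nucleoplasm with 45.5% and tRNA-Ala-AGC-2-1-tRF3 in cytoplasm with 36.7%.

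Single entries were tested with limma on log2(RPM + 1), with p-values adjusted over all 851 entries that reached 1 RPM in 3 libraries. Of the fragments 28 passed this filter, 12 tRF5 and 16 tRF3, and an entry is called at an adjusted p under 0.05. Differences below are between group means on that log2 scale, and folds are ratios of mean RPM, so the log2 of a fold need not equal the difference printed beside it. Where a group was at 0 in all libraries, the difference depends on the added 1 and is no bound on the change, and no fold is given. As a check, each library was also shifted to the same median of the tested entries. That median was itself 0 in 11 of 27 libraries, and the shift moved the median difference of all tested entries by between -4.49 and 5.67, more than many differences of single fragments. Of the 108 named calls, 42 kept direction and threshold under the shift, 55 kept the direction and missed the threshold, and 11 turned, which are named beside the result where it is given. With every value under 59.1 RPM, the highest of the lowest listed values, set to that level, 79 kept direction and threshold and 29 missed the threshold. Counts of calls under the shift or this floor are given below without the share of all entries called under them. They show how far the counts depend on the scale and are no result about the fragments. Host genes and exons are those of GENCODE M21.

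tRNA-Thr-AGT-6-1-tRF5, from a threonine tRNA gene at chr13:21249194-21249267 on the minus strand and outside GENCODE genes, had the highest mean of all fragments and was highest in mESC in each fraction. In mESC it had 2357, 4730.2 and 8847 RPM in the chromatin libraries, 339, 649.8 and 943 for nucleoplasm, and 150.2, 743 and 1171 for cytoplasm. In mNPC it had 110.4, 125.9 and 118 RPM in chromatin and was at 0 in the other fractions. The mCtx libraries had 213, 248 and 186 RPM in chromatin, 21.9, 23.2 and 21.7 for nucleoplasm, and 0, 17.4 and 0 for cytoplasm. Every mESC chromatin library thus lay above every other library of this fragment. Mean RPM was 7.72-fold higher in chromatin than in cytoplasm of mESC, and the difference of mean log2 values was 3.18 (SE 0.84, limma adjusted p = 0.00291), which turned to -1.06 with libraries shifted to one median. In mNPC and mCtx the same comparison was also called (6.9 and 6.35, limma adjusted p of 9.67e-07 and 2.47e-06), with or without the shift, though the mNPC call was lost at the common floor. In mNPC chromatin it stood at 0.0222 and in mCtx chromatin at 0.0405 times the mESC chromatin level, differences of -5.28 and -4.43 (limma adjusted p of 1.94e-05 and 0.00013), and -0.96 and -3.56 with shifted libraries, neither past the threshold.

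The other threonine fragments were lower. tRNA-Thr-CGT-1-1-tRF3 (chr16:13437323-13437394, plus strand, inside Gm15738 but in no exon of it) had 119.6, 208 and 489 RPM in mESC chromatin, 168, 183 and 189 in mNPC chromatin, and 49.6, 34.2 and 0 in mCtx chromatin. In mNPC cytoplasm, where each library listed 7 fragments, it had 61.9, 59.3 and 56.9 RPM. In mNPC nucleoplasm it had 78.3, 109 and 48.3 RPM against 0, 10.8 and 0 in mCtx, a log2 difference of -5.05 for mCtx (SE 1.59, limma adjusted p = 0.0174). The p rose to 0.0558 without mNPC nucleoplasm replicate 2 and to 0.0698 and 0.0724 without mCtx nucleoplasm replicates 1 and 3, and the call was lost at the common floor. In mESC its nucleoplasm values were 100.4, 65.1 and 167 RPM, and its cytoplasm values were 44.1, 0 and 104. In mCtx cytoplasm it had 0, 26.1 and 25.6 RPM.
tRNA-Thr-AGT-1-2-tRF3 (chr11:69037853-69037926, plus strand) was found in the nuclear fractions of mESC, with 110.1, 166 and 223.3 RPM in chromatin and 55.1, 78.7 and 40.8 in nucleoplasm. All mESC cytoplasm libraries listed it at 0, as did every other library except 1 of mCtx chromatin with 43.4 RPM. It was called higher in mESC chromatin than in cytoplasm (limma adjusted p = 4.03e-07), a call lost with shifted libraries (3.08, adjusted p = 0.0773). tRNA-Thr-TGT-2-1-tRF3 (chr14:51088650-51088722, plus strand) had 105, 94.9 and 186 RPM in mESC chromatin, 26.9 in 1 nucleoplasm library and 33.1, 31.4 and 0 in mCtx chromatin. This fragment was likewise called higher in mESC chromatin than in cytoplasm, where it was at 0 (limma adjusted p = 1.3e-05), and this call was also lost with the shift (2.71, adjusted p = 0.13). tRNA-Thr-CGT-2-1-tRF3 was above 0 in 6 libraries, 5 of them of chromatin, with at most 115 RPM.

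The histidine fragments with anticodon GTG differed in the cell type in which they were highest. Of the 8 entries, 6 belong to variant 2 and share a mature sequence, so how the authors divided reads among these copies bears on each pattern below, and its part was not tested. tRNA-His-GTG-2-1-tRF5, tRNA-His-GTG-2-2-tRF5 and tRNA-His-GTG-2-3-tRF3, from neighbouring genes on chromosome 2, were highest in mESC chromatin. tRNA-His-GTG-2-1-tRF3 and tRNA-His-GTG-2-3-tRF5, the pair whose strand went against its class, were highest in mNPC chromatin.

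tRNA-His-GTG-2-1-tRF5 (chr2:122375494-122375565, minus strand) had 545, 974 and 2192 RPM in mESC chromatin, 83.1, 141.9 and 284 for nucleoplasm and 101, 146 and 399 for cytoplasm. In mNPC the values were 125, 231 and 125 RPM in chromatin, 35.5, 62.9 and 0 for nucleoplasm, and 42.3, 34.04 and 48.2 for cytoplasm. In mCtx they were 37.0, 69.4 and 55.7, then 15.2, 12.2 and 9.23, then 23.3, 51.2 and 42.2 RPM in the same order. Chromatin and cytoplasm overlapped in mCtx, and chromatin lay above cytoplasm without overlap in mESC and mNPC. In mESC the difference was 5.74-fold and 2.54 on the log2 scale (SE 1.01, limma adjusted p = 0.039), which became -1.71 with shifted libraries. Against mESC chromatin the fragment was lower in mNPC and mCtx chromatin, by log2 differences of -2.77 and -4.3 (limma adjusted p of 0.0293 and 0.00113), the first of which turned to 1.55 and the second missed the threshold with shifted libraries (-3.44, adjusted p = 0.122). Single libraries decided the call against mESC cytoplasm and that of mNPC against mESC: without mESC chromatin replicate 3 their adjusted p were 0.157 and 0.125. The first was also lost without mESC chromatin replicate 2 (0.0718) or mESC cytoplasm replicate 1 or 2 (0.138 and 0.0944). The same held for the second without mESC chromatin replicate 2 (0.0574) or mNPC chromatin replicate 1 or 3 (0.0788 and 0.0767).

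tRNA-His-GTG-2-2-tRF5 (chr2:122377363-122377434, minus strand) had 403, 908 and 1957 RPM in mESC chromatin, 69.3, 209.7 and 305 for nucleoplasm and 0, 154 and 308 for cytoplasm. In mNPC it had 131.6, 198 and 222 RPM, then 84.7, 114 and 118, then 24.3, 0 and 101. In mCtx it had 101, 119 and 121 RPM, then 30.1, 27.7 and 29.9, then 23.3, 59.9 and 32.9. Chromatin was above cytoplasm without overlap in each cell type, but only the mESC difference was called (4.62, SE 1.57, limma adjusted p = 0.0163). That p was 0.0651 without mESC chromatin replicate 3, and without mESC cytoplasm replicate 1, the library at 0, the difference was 2.03 with a p of 0.178. With shifted libraries it was 0.38 (limma adjusted p = 0.886). tRNA-His-GTG-2-3-tRF3 (chr2:122377968-122378039, plus strand) had 515, 708 and 1729.8 RPM in mESC chromatin, 67.0, 127 and 202 for nucleoplasm and 77.9, 112 and 255 for cytoplasm. It had 67.2, 158 and 0 RPM in mNPC chromatin, 142.5, 122 and 152 in mCtx chromatin and 15.7, 10.9 and 10.6 in mCtx nucleoplasm, and was at 0 in the other neural groups. Its mESC chromatin libraries lay above all others, and chromatin was called higher than cytoplasm in mESC (2.7, turning to -1.54 with shifted libraries), mNPC (4.47) and mCtx (7.12), with limma adjusted p of 0.0475, 0.00316 and 2.22e-05. The mESC call lay at the threshold and was lost without any 1 of 22 of the 27 libraries, with a p up to 0.166, the highest without mESC chromatin replicate 3. The mNPC call was lost with shifted libraries (2.78, limma adjusted p = 0.214) and at the common floor.

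tRNA-His-GTG-2-1-tRF3, given at the same gene as its tRF5 counterpart, was listed at 0 in all 9 mESC libraries. In mNPC it had 3765, 3883 and 3699 RPM in chromatin, 0, 1102 and 952 for nucleoplasm, and 0 for cytoplasm. In mCtx it had 1079.7, 905 and 1017 RPM in chromatin and 0 elsewhere. The lowest neural chromatin library, at 905 RPM, was far above the highest lowest-listed value of any mESC library, which was 54.8 RPM. Chromatin was called higher than cytoplasm in mNPC and mCtx (limma adjusted p of 1.96e-06 and 1.71e-05), and mNPC and mCtx chromatin were called higher than mESC chromatin (1.28e-06 and 1.19e-05 by limma, adjusted). Since the fragment passed the filter only through neural chromatin and mNPC nucleoplasm, these calls are no separate support.
tRNA-His-GTG-2-3-tRF5 (the gene of tRNA-His-GTG-2-3-tRF3) had 1391, 1379 and 2311 RPM in mNPC chromatin, 0, 0 and 274 in nucleoplasm, and 604, 560.2 and 616 in mCtx chromatin. In mESC 1 chromatin library, replicate 3, had 1244 RPM and all other libraries 0. Across the 27 libraries this entry and tRNA-His-GTG-2-1-tRF3 had a Pearson r of 0.82 on the log2 scale, while r between the tRF3 and tRF5 entries of the first gene was -0.14. These correlations are descriptions, and they share library depth and the many values at 0. A tRNA-class entry at the first gene was at 0 in every chromatin library. Its nucleoplasm mean was 1120 RPM for mESC and 0 for mNPC and mCtx. Its cytoplasm mean was 2063 RPM for mESC, 0 for mNPC and, from 1 library, 903 for mCtx. The tRNA-class entry of tRNA-His-GTG-2-2, of the same mature sequence, had 105.7 to 1315 RPM across all chromatin libraries. The 0 at the first gene is thus not read as absence of histidine tRNA reads from chromatin. How reads were divided among these copies was not tested.

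The remaining histidine entries were low. tRNA-His-GTG-1-1-tRF5 (chr3:96463972-96464043, minus strand, inside Gm10685 but in no exon of it) was listed in mESC alone. It had 56.0, 54.2 and 70.7 RPM in chromatin, 93.7, 105 and 89.3 for nucleoplasm and 102, 105 and 120.3 for cytoplasm of mESC, and 0 in all 18 neural libraries. Unlike most fragments it was lower in mESC chromatin than in cytoplasm, by -0.85 on the log2 scale (SE 0.2, limma adjusted p = 0.00133). It was called lower in both neural cell types in every fraction, though in chromatin its level did not pass the highest lowest-listed value of the mNPC libraries, 59.1 RPM, in all 3 mESC libraries. Since it passed the filter only through mESC, these calls are no separate support. tRNA-His-GTG-2-7-tRF5 (chr3:96500366-96500437, minus strand) was listed in mCtx chromatin alone, with 42.5, 25.7 and 27.1 RPM. Its values did not all lie above the lowest listed values of mNPC chromatin, 32.5 to 59.1 RPM, so its call against mNPC (limma adjusted p = 4.29e-15) does not show a difference in level. tRNA-His-GTG-3-1-tRF3 had 1 value, 147 RPM in mESC chromatin.

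tRNA-Asn-GTT-3-4-tRF3 (chr3:96451425-96451498, plus strand, inside BC107364) and tRNA-Asn-GTT-3-5-tRF5 (chr3:96459138-96459211, minus strand, inside Gm10685), both outside exons, are described once since their values were identical. In mESC they had 1099, 1302 and 5318 RPM in chromatin, 0, 484 and 957 for nucleoplasm and 178, 260.1 and 395 for cytoplasm. In mNPC they had 497, 783 and 741 RPM, then 73.3, 130.1 and 123.7, then 49.5, 65.7 and 90.9. In mCtx they had 334, 284 and 247 RPM, then 45.7, 53.7 and 32.3, then 29.0, 26.8 and 24.6. Chromatin libraries lay above cytoplasm libraries without overlap in all 3 cell types, and the log2 differences of 2.9, 3.29 and 3.37 in mESC, mNPC and mCtx were alike in size. None of them was called (SE 1.5, limma adjusted p of 0.115, 0.0977 and 0.0781), and the SE includes the 1 mESC nucleoplasm library at 0. Chromatin was called higher than nucleoplasm in mESC, by 4.67 (limma adjusted p = 0.0132). The difference was 1.53 without the library at 0, mESC nucleoplasm replicate 1, and missed the threshold without mESC chromatin replicate 3 (adjusted p = 0.0626) or with shifted libraries (0.0987). Counted once, the asparagine fragments would rank behind threonine. tRNA-Asn-GTT-1-1-tRF5 had 1 value, 54.8 RPM in mESC chromatin.

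tRNA-Arg-ACG-1-3-tRF3, the arginine fragment whose A box is shown above (gene at chr14:54517696-54517768, plus strand, outside GENCODE genes), was highest in mNPC. In mNPC it had 1957, 2003 and 1187 RPM in chromatin, 387, 371 and 201 for nucleoplasm and 213, 247 and 229 for cytoplasm. In mESC it had 223.3, 523 and 679 RPM, then 115, 161 and 262, then 56.0, 130.2 and 122. In mCtx it had 199.6, 422 and 354 RPM, then 40.5, 42.6 and 52.9, then 50.2, 9.78 and 30.5. The mNPC chromatin libraries lay above all others, and mESC and mCtx chromatin overlapped. Chromatin was 4.63-fold above cytoplasm in mESC, 7.47-fold in mNPC and 10.8-fold in mCtx, log2 differences of 2.15, 2.86 and 3.59 (SE 0.51, limma adjusted p of 0.00128, 0.000122 and 6.96e-06), the first turning to -2.1 with shifted libraries and the others falling under the threshold at 1.17 and 1.18. In chromatin mNPC was 3.61-fold above mESC and mCtx stood at 0.19 times mNPC (1.96 and -2.42, limma adjusted p of 0.00343 and 0.000947).

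tRNA-Ala-AGC-2-1-tRF3, the alanine fragment whose whole gene is shown above, kept a level in mCtx cytoplasm where most fragments had none. In mESC it had 761, 1148 and 1072 RPM in chromatin, 187, 271 and 281 for nucleoplasm and 143.3, 348 and 242 for cytoplasm. In mNPC it had 81.2, 249 and 165 RPM, then 0, 0 and 45.3, then 0, 36.7 and 0. In mCtx it had 342, 416 and 362 RPM, then 57.3, 70.5 and 53.2, then 164, 121 and 94.2, so that cytoplasm lay above nucleoplasm without overlap there, a difference that was not called (-1.03 for nucleoplasm, limma adjusted p = 0.696). Chromatin was called higher than cytoplasm in mNPC (5.49, SE 1.21, limma adjusted p = 0.00102), and mCtx was called higher than mNPC in cytoplasm (5.21, limma adjusted p = 0.00185). Both calls were lost with shifted libraries (3.8 and 2.47, adjusted p of 0.102 and 0.245).

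tRNA-Asp-GTC-1-11-tRF3, an aspartate fragment (chr13:21911313-21911384, plus strand, outside GENCODE genes), was a chromatin fragment in all 3 cell types. It had 778, 795 and 2630.2 RPM in mESC chromatin, 62.0, 59.7 and 136 for nucleoplasm and 0, 0 and 36.2 for cytoplasm. In mNPC it had 212, 212 and 171 RPM in chromatin and 0 in the other fractions, and in mCtx 166, 271 and 183 in chromatin, 15.2, 11.6 and 8.64 for nucleoplasm and 0 for cytoplasm. It was called higher in chromatin than in cytoplasm in mESC, mNPC and mCtx, by 8.46, 7.63 and 7.67 (SE 0.88, limma adjusted p of 7.46e-08, 4.81e-07 and 4.52e-07). Against nucleoplasm, where values were above 0, chromatin was 16.3-fold higher in mESC and 17.5-fold higher in mCtx (limma adjusted p of 0.000988 and 0.00132), calls that were lost with shifted libraries (0.126 and 0.232). mNPC chromatin was lower than mESC chromatin by -2.57 (limma adjusted p = 0.0209), which turned to 1.75 with shifted libraries. It missed the threshold without mESC chromatin replicate 3 or mNPC chromatin replicate 3 (adjusted p of 0.111 and 0.0554).

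**Figure D4:**
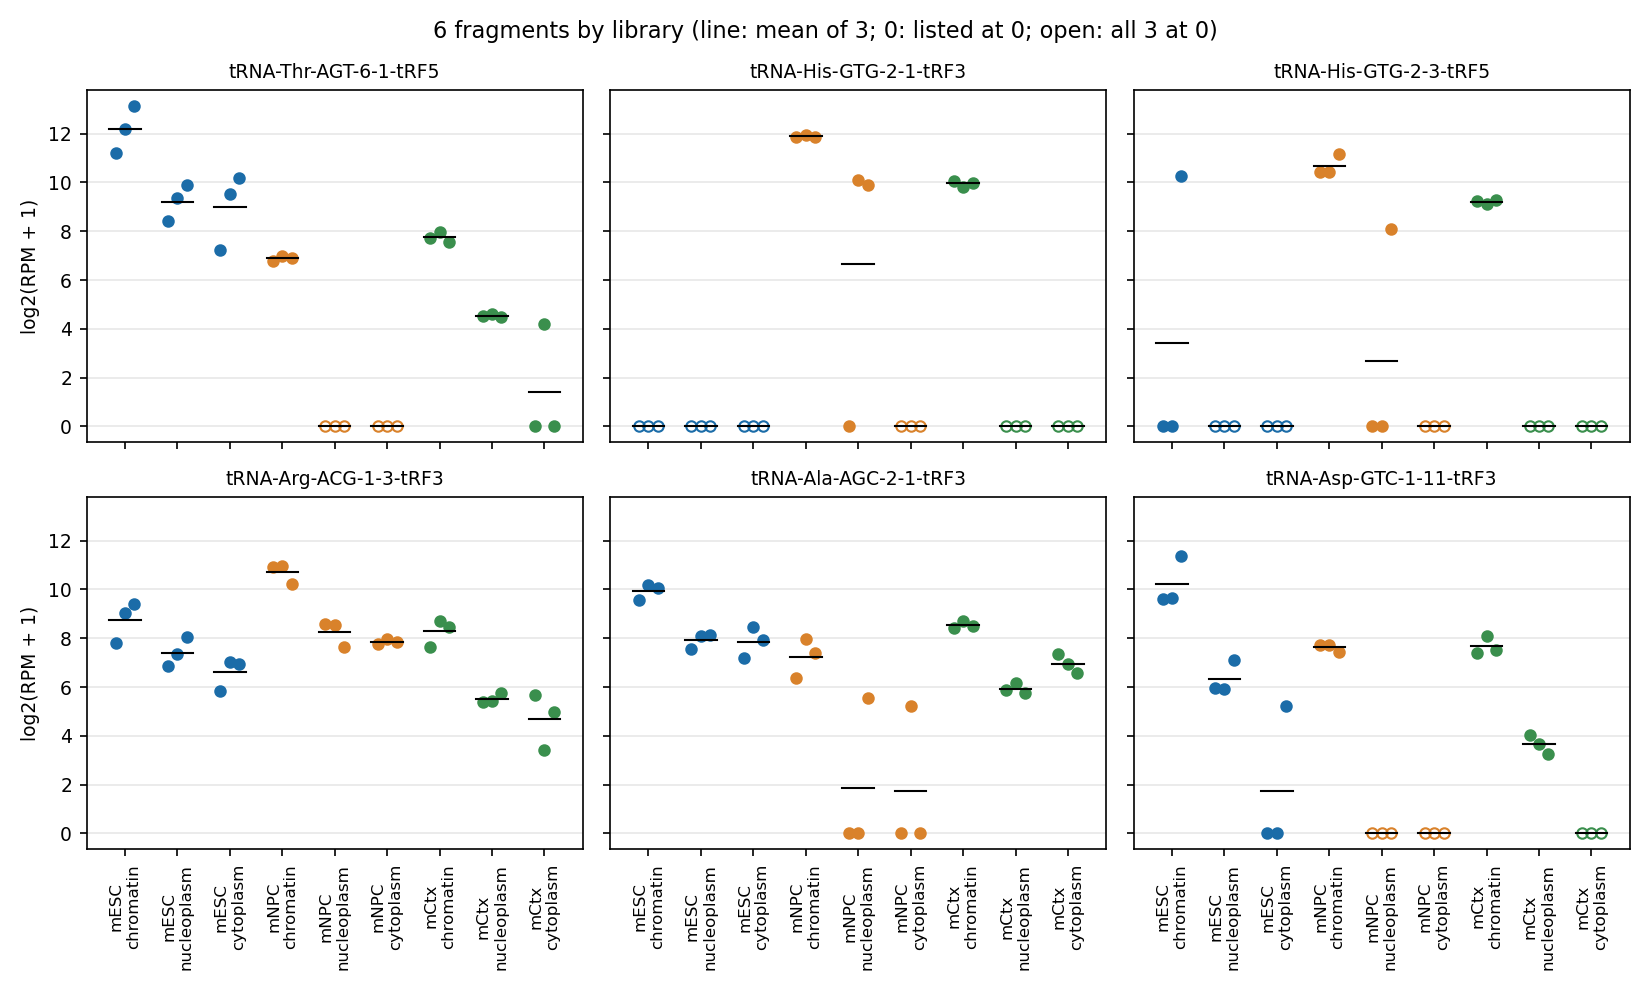
Each panel is 1 fragment, with log2(RPM + 1) in each library by group, lines for group means and open circles where all 3 libraries are at 0. The histidine pair is at 0 in all mESC libraries but 1 and high in neural chromatin, where tRNA-His-GTG-2-1-tRF3 has 905 to 3883 RPM, whereas tRNA-Thr-AGT-6-1-tRF5 is highest in mESC.

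tRNA-Tyr-GTA-6-1-tRF3, a tyrosine fragment, had another order of fractions. Its position (chr2:22589649-22589715, plus strand) lies inside Myo3a in no exon, and it was the only entry without a RefSeq tRNA gene. In mCtx it had 118, 164 and 134 RPM in chromatin, 293.1, 232 and 207 for nucleoplasm and 0, 41.9 and 43.2 for cytoplasm. In mESC it was listed in nucleoplasm alone, with 88.4, 159 and 125.9 RPM, and in mNPC nucleoplasm with 65.8, 61.2 and 0. It was called higher in nucleoplasm than in cytoplasm in mESC, mNPC and mCtx (limma adjusted p of 0.000276, 0.0331 and 0.0141). The mNPC call was lost without any 1 of nucleoplasm replicates 1 and 2 and cytoplasm replicates 1 to 3, with adjusted p up to 0.21, and the mCtx call without cytoplasm replicate 1 (0.108). In chromatin mCtx was called higher than mNPC and mESC (limma adjusted p of 0.000134 and 5.79e-05). With shifted libraries the nucleoplasm calls had adjusted p of 0.096, 0.14 and 0.375 and the chromatin call against mNPC 0.06. The mNPC nucleoplasm call was also lost at the common floor.

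Further fragments were listed mainly in mESC. tRNA-Gln-CTG-3-2-tRF5 (chr3:96399059-96399130, minus strand), a glutamine fragment, had 96.7, 216 and 584 RPM in mESC chromatin, 0, 29.5 and 85.3 for nucleoplasm and 0, 0 and 34.6 for cytoplasm. Its copy tRNA-Gln-CTG-3-3-tRF3 had 77.6, 112 and 339 RPM, then 19.1, 0 and 64.6, then 0, 0 and 50.4. tRNA-Cys-GCA-3-1-tRF3 (chr6:47978997-47979068, plus strand), a cysteine fragment, had 71.8, 262 and 296 RPM, then 32.9, 65.1 and 92.5, then 0, 0 and 40.0.
Outside mESC these had 1 value, 25.6 RPM for tRNA-Gln-CTG-3-2-tRF5 in mCtx chromatin. tRNA-Gln-CTG-3-2-tRF5, tRNA-Gln-CTG-3-3-tRF3 and tRNA-Cys-GCA-3-1-tRF3 were called higher in chromatin than in cytoplasm of mESC (limma adjusted p of 0.00107, 0.00107 and 1.66e-05) and lower in mNPC and mCtx chromatin than in mESC chromatin. These fragments passed the filter only through their mESC values, so their lower calls in neural chromatin are no separate support. Against mNPC, the calls of tRNA-Gln-CTG-3-2-tRF5 and tRNA-Cys-GCA-3-1-tRF3 were lost with shifted libraries (0.104 and 0.108). tRNA-Ala-TGC-3-1-tRF5 (chr11:48834429-48834500, minus strand, inside Trim7 but in no exon) had 300.3, 167 and 301 RPM in mESC chromatin and 43.5 in 1 mNPC library outside mESC. Its mCtx chromatin libraries were at 0 (limma adjusted p = 7.79e-05), and it too passed the filter only through mESC. tRNA-Leu-TAA-3-1-tRF5 had 0, 174 and 464 RPM in mESC chromatin, and tRNA-Ser-GCT-4-1-tRF5 had up to 62.1 RPM, both in mESC alone.

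Copies of 1 sequence also appeared in different fractions. tRNA-Ile-AAT-1-1-tRF3 (chr11:69037003-69037076, plus strand), an isoleucine fragment, was listed in cytoplasm, with 142.7, 88.7 and 59.1 RPM in mESC and 50.2, 39.5 and 65.0 in mNPC. In chromatin and nucleoplasm of both it was at 0, and in mCtx it had 29.4 RPM in 1 chromatin library and 11.3 in 1 nucleoplasm library. tRNA-Ile-AAT-1-4-tRF5 (chr13:21855320-21855393, minus strand), of the same variant, had 66.4, 100.4 and 97.4 RPM in mESC nucleoplasm, 72.5 in 1 chromatin library and 0 elsewhere.
The pair was never above 0 in the same library. tRNA-Ile-AAT-1-1-tRF3 was called lower in chromatin than in cytoplasm in mESC and mNPC (limma adjusted p of 6.97e-06 and 6.43e-05). Its mNPC cytoplasm values did not all lie above the lowest listed values of mNPC chromatin, 32.5 to 59.1 RPM, so the mNPC call does not show a difference in level. tRNA-Ile-AAT-1-4-tRF5 was called higher in nucleoplasm than in cytoplasm in mESC (2.67e-05 by limma, adjusted), a call lost with shifted libraries (0.169). It passed the filter only through mESC nucleoplasm. tRNA-Leu-CAG-2-2-tRF3, a leucine fragment, was listed in mESC cytoplasm alone, with 49.6, 62.3 and 34.6 RPM, not all of them above the lowest listed values of mESC chromatin, 45.2 to 54.8 RPM. tRNA-Val-CAC-2-3-tRF3 was listed in 2 mESC nucleoplasm libraries, at 22.9 and 20.8 RPM, and 1 of mCtx nucleoplasm, at 9.61.

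The 6 fragments that did not pass the filter each had 1 library above 0. Beside tRNA-His-GTG-3-1-tRF3 and tRNA-Asn-GTT-1-1-tRF5 they were tRNA-Leu-CAG-2-3-tRF5 with 38.0 RPM, tRNA-Thr-AGT-3-1-tRF3 with 29.8 and tRNA-Ser-GCT-4-3-tRF3 with 23.6, all in mESC nucleoplasm, and tRNA-Leu-CAA-2-1-tRF3 with 14.9 in mCtx cytoplasm. In all, 14 fragments were listed in all 3 cell types, 12 in mESC alone, 4 in mESC and mCtx, 2 in mCtx alone and 1 each in the pairs with mNPC. By fraction, 19 were listed in all 3, 6 in chromatin and nucleoplasm, 4 in nucleoplasm alone, 3 in chromatin alone and 2 in cytoplasm alone. The group with the highest mean was mESC chromatin for 19 of 34 fragments.

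Between chromatin and cytoplasm, most calls among the fragments were higher in chromatin. In mESC 13 of 28 were higher and 3 lower, against 24.9% and 29.5% of all tested entries called higher and lower, and with shifted libraries the split was 1 and 7. In mNPC 7 were higher and 1 lower, beside 19.3% and 19.5% of all entries. In mCtx 9 were higher and 0 lower, beside 20.2% and 23.9%.
Leaving out mESC chromatin replicate 3 left 9 called higher and 3 lower in mESC. By class, 5 of 12 tRF5 and 8 of 16 tRF3 entries were higher for mESC, 2 and 5 for mNPC, and 3 and 6 for mCtx. The median log2 difference of the fragments was 2.9 in mESC, 0.79 in mNPC and 1.64 in mCtx, where that of all tested entries was 0. Entries at 0 in both groups give a difference of 0, so the latter median is no baseline for entries with values. With shifted libraries the median of all tested entries was -4.24, -1.69 and -2.41. In chromatin, snoRNAs took 45.4% to 54.3% of listed reads for mESC, 23.3% to 40.5% for mNPC and 20.6% to 23.2% for mCtx. Scaled to the reads outside snoRNAs, 17, 8 and 11 fragments were higher in chromatin, and 2, 1 and 0 lower. This scaling raises every chromatin value against cytoplasm, in fragments and other entries alike. The share of all entries called under it is not given here, so these counts are no result about the fragments. Without this scaling, the fragments called higher in both mNPC and mCtx were tRNA-His-GTG-2-1-tRF3, tRNA-His-GTG-2-3-tRF5, tRNA-His-GTG-2-3-tRF3, tRNA-Asp-GTC-1-11-tRF3, tRNA-Thr-AGT-6-1-tRF5 and tRNA-Arg-ACG-1-3-tRF3.

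**Figure D5:**
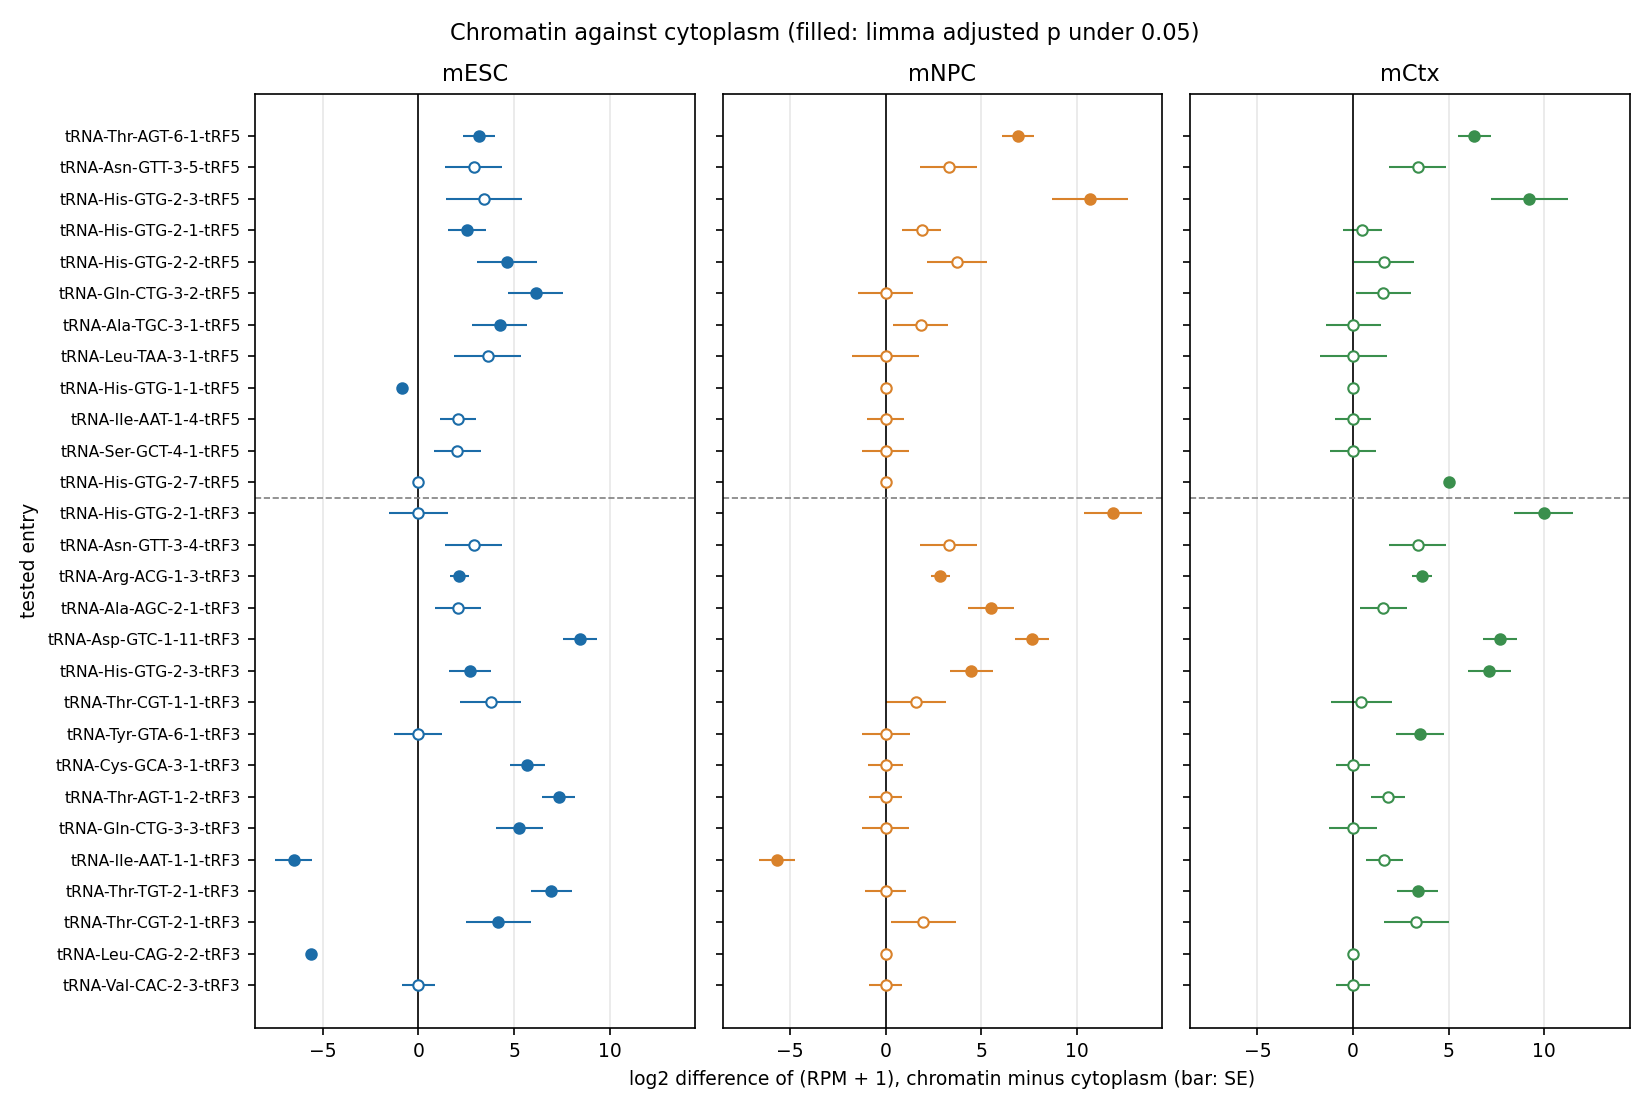
Each row is a fragment that passed the filter and each panel a cell type, with the log2 difference of chromatin from cytoplasm and its SE as a horizontal bar. Filled points are called by limma at an adjusted p under 0.05 and open points are not; most filled points lie to the right of 0, 13 of 16 in mESC, 7 of 8 in mNPC and 9 of 9 in mCtx.

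Fewer fragments were called between nucleoplasm and cytoplasm, and the same was true of all tested entries in each cell type. In mESC 6 fragments were higher in nucleoplasm and 2 lower, beside 14% and 5.17% of all tested entries, and 0 and 9 with shifted libraries. In mNPC 2 were higher and 1 lower, beside 9.4% and 6.11%, and 1 and 1 with the shift. In mCtx 4 were higher and 0 lower, beside 13.5% and 11.8%, and 0 and 0 with the shift. Between chromatin and nucleoplasm, 11 were higher in chromatin and 4 lower in mESC, beside 19.9% and 30.9%, with 2 and 2 after the shift. In mNPC these were 8 and 1, beside 16.9% and 10.9%, with 3 and 1 after the shift. In mCtx they were 8 and 0, beside 14.9% and 17.2%.

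Between cell types, most calls among the fragments were lower in neural cells than in mESC, and among all tested entries too more were called lower than higher. In chromatin, mNPC had 3 fragments higher and 13 lower than mESC, beside 15.9% and 29% of all tested entries, but 9 and 0 with shifted libraries. With that shift the median difference of all tested entries was 4.32 in this comparison and 4.47 in nucleoplasm, so the table in general moved the same way. In mCtx chromatin 4 were higher and 13 lower than in mESC, beside 22.8% and 29.3%, and 4 and 6 with the shift. The higher ones in mNPC chromatin were tRNA-His-GTG-2-1-tRF3, tRNA-His-GTG-2-3-tRF5 and tRNA-Arg-ACG-1-3-tRF3, of which the first passed the filter only through neural libraries. In nucleoplasm mNPC had 1 higher and 13 lower, beside 12.8% and 35.8%, which became 10 and 0, and mCtx had 0 and 13, beside 20.9% and 31.3%. In cytoplasm mNPC had 0 and 6, beside 14.1% and 27.5%, and mCtx 1 and 7, beside 21% and 24.4%, the latter 0 and 6 with the shift. The lower calls in cytoplasm were near or below the share of all entries, so they are no result about the fragments. Since the mESC libraries are common to these comparisons, they are not independent of each other. Fragments listed in mESC alone passed the filter only through mESC, so without the shift they could not be called higher in neural cells.

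Between the neural cell types fewer fragments were called, as were fewer of all tested entries, so the smaller counts are not particular to the fragments. mCtx chromatin had 3 higher and 1 lower than mNPC chromatin, beside 16% and 11.9% of all entries, and 0 and 5 with shifted libraries. In nucleoplasm 5 were higher and 3 lower, beside 23.5% and 10.3%, and 0 and 19 with the shift, under which the median difference of all tested entries was -4.49. In cytoplasm 2 were higher and 2 lower, beside 21.5% and 10.8%, and 0 and 3 with the shift. With that common floor the splits were 2 and 4 in chromatin and 1 and 2 in nucleoplasm. The difference between chromatin and cytoplasm was called as differing between mNPC and mESC for 9 of 28 fragments, beside 30.8% of all entries. Between mCtx and mNPC it was called for 2, beside 17.3%. With shifted libraries these counts were 3 and 0. For mNPC against mESC, all but tRNA-Thr-AGT-6-1-tRF5 were at 0 in both fractions of a cell type. Their calls rest on the fractions of the other cell type alone.

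Many calls set a group with values against one at 0. Of the 16 calls between chromatin and cytoplasm in mESC, 11 had values on both sides, 3 had a group at 0 and the other above its lowest listed values in all libraries, and 2 had values that did not all reach them. The corresponding numbers were 2, 4 and 2 of 8 in mNPC and 3, 5 and 1 of 9 in mCtx. Among fragments above 0 in all 6 libraries compared, 5 of 8 were called in mESC, 1 of 5 in mNPC and 1 of 6 in mCtx. Of the mESC calls 4 were higher in chromatin and 1 lower, and the neural ones were higher. The share called among all entries above 0 in the same libraries is not given here, so these counts are no result about the fragments.

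Among tRNA-class entries of the same amino acid and anticodon, more were called lower than higher in chromatin against cytoplasm. Of 55 such entries that passed the filter, 4 were higher in chromatin and 15 lower for mESC, 1 and 22 for mNPC, and 0 and 32 for mCtx, with median log2 differences of -0.85, -1.68 and -3.11. The lower calls stand beside 29.5%, 19.5% and 23.9% of all tested entries, and the mESC count is near that share. Between cell types most of their calls were lower in neural chromatin. Against mESC chromatin, 0 were higher and 30 lower for mNPC, and 2 and 31 for mCtx. Among all tested entries 15.9% and 29% were higher and lower for mNPC, and 22.8% and 29.3% for mCtx. Of all 159 tested tRNA-class entries, 2 were higher and 81 lower for mNPC, and 3 and 74 for mCtx. Class counts for chromatin against cytoplasm were 30 and 41 for mESC, 7 and 60 for mNPC, and 5 and 95 for mCtx. The pattern is thus not particular to entries that share an anticodon with a fragment. At single genes the tRNA-class entry and the fragment could differ. The tRNA-class entry of tRNA-Thr-AGT-6-1 had 57.4 to 482 RPM in mESC chromatin and 0 in mESC cytoplasm, the order of its fragment tRNA-Thr-AGT-6-1-tRF5. That of tRNA-His-GTG-2-2 averaged 759 RPM in chromatin and 2077 in cytoplasm of mESC, the reverse of tRNA-His-GTG-2-2-tRF5.

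The entries of the whole table whose profile over the 27 libraries was most like that of tRNA-Thr-AGT-6-1-tRF5 were tRNA-His-GTG-2-3-tRF3 (Pearson r of 0.93 on the log2 scale), Snord83b (0.92) and Snord96a (0.89). For tRNA-His-GTG-2-1-tRF3 they were mmu-mir-296 (0.85), Gm24119 (0.85) and tRNA-His-GTG-2-3-tRF5 (0.82). Of these last entries, mmu-mir-296 and Gm24119 were each above 0 in 6 libraries and tRNA-His-GTG-2-3-tRF5 in 8, so shared values at 0 enter their r. The correlations are descriptions over 27 libraries in 9 groups, which share depth and fraction.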

How the data were processed

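RNA shorter than 200 nt, depleted of ribosomal RNA, gave libraries sized 120 to 160 bp, sequenced from 1 end for 100 bp, per the labels' protocols. The table deposited by the authors gives RPM, reads scaled to a common total, for 1013 entries in 27 libraries, with a class for each. For the aligner, the rule that assigns reads to fragments and the read totals: not given in the sources used here. Depth and its counting error are thus unknown. Reads from copies with the same sequence could be shared between entries in ways that the table does not show.

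RPM were put on the log2(RPM + 1) scale, the 851 entries that reached 1 RPM in 3 or more libraries were kept, and group means of all 9 groups were fitted with limma 3.58.1 in R 4.3.3 (trend and robust variance, 18 residual degrees of freedom). The 18 pairwise contrasts and 2 interactions were adjusted by Benjamini-Hochberg over all tested entries, with a threshold of 0.05. The script was tested on simulated data. Shares and sums were computed with Python 3.11.15, pandas 2.3.3 and numpy 2.4.6. Named with all values are the 12 fragments of highest mean RPM and, in each contrast with cytoplasm or between cell types, the called fragments with the 3 largest differences. Positions are on GRCm38, with 1 base added to the deposited starts, and sequences are from RefSeq (GRCm38.p6). The members and lists were chosen with earlier results of these data known. Alternatives were a pseudocount of 10, no filter, a filter of 50 RPM, scaling outside snoRNAs, a shift to one median, a common floor, a replicate block and leaving out each library. Fragments without a sequence in the reference tables are named only.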

Additional observations from a re-analysis of the deposited data

Results flagged for a closer look

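For 11 fragments the difference between chromatin and cytoplasm was called as differing between cell types, by limma's interaction test with adjustment over all 851 entries. For mNPC against mESC these were 9 of 28 fragments beside 30.8% of all entries, a share near the background, and for mCtx against mNPC 2 beside 17.3%. With libraries shifted to one median 3 and 0 were called. The values are differences of log2 differences, and where a group is at 0 they depend on the added 1. For mNPC against mESC they were 11.89 for tRNA-His-GTG-2-1-tRF3 (adjusted p = 0.000223), 5.6 for tRNA-Leu-CAG-2-2-tRF3 (9.13e-13), 3.71 for tRNA-Thr-AGT-6-1-tRF5 (0.022) and 0.85 for tRNA-His-GTG-1-1-tRF5 (0.0297). The negative values were -7.33 for tRNA-Thr-AGT-1-2-tRF3 (0.000108), -6.96 for tRNA-Thr-TGT-2-1-tRF3 (0.00138), -6.14 for tRNA-Gln-CTG-3-2-tRF5 (0.0264), -5.69 for tRNA-Cys-GCA-3-1-tRF3 (0.00164) and -5.28 for tRNA-Gln-CTG-3-3-tRF3 (0.0264). For mCtx against mNPC they were 7.33 for tRNA-Ile-AAT-1-1-tRF3 (adjusted p = 0.000574) and 5.00 for tRNA-His-GTG-2-7-tRF5 (5.1e-12). Of these, tRNA-Leu-CAG-2-2-tRF3, tRNA-His-GTG-1-1-tRF5 and tRNA-His-GTG-2-7-tRF5 have the smallest SE of all fragments, about 0.2, and are at 0 in most libraries. The mCtx values of tRNA-His-GTG-2-7-tRF5 did not all lie above the lowest listed values of mNPC chromatin. The same held for tRNA-Leu-CAG-2-2-tRF3 in mESC cytoplasm against mESC chromatin, and for tRNA-Ile-AAT-1-1-tRF3 in mNPC cytoplasm against mNPC chromatin. These entries thus do not show a difference in level. For mNPC against mESC, tRNA-His-GTG-2-1-tRF3 was at 0 in chromatin and cytoplasm of mESC. The others, except tRNA-Thr-AGT-6-1-tRF5, were at 0 in both fractions of mNPC. Each such value is the difference within a single cell type and does not show that the order of fractions changed.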

How the results depend on the processing

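The replicate numbers did not meet the criterion for pairing, since no contrast had all 3 same-numbered correlations over 0.1. They lay between -0.12 and 0.19 over all contrasts, and were all above 0 for chromatin or nucleoplasm against cytoplasm in mESC, from 0.0046 to 0.19. In mESC replicate 3 had the highest and replicate 1 the lowest fragment share in each fraction. A replicate block changed the side of the threshold of none of the 108 named differences, and the count of fragments called between chromatin and cytoplasm in mESC was 18 with it against 16. Shifting libraries to one median moved most counts: chromatin against cytoplasm 8 for mESC, 5 for mNPC and 5 for mCtx, chromatin against nucleoplasm 4, 4 and 3, nucleoplasm against cytoplasm 0 in mCtx, mNPC against mESC chromatin 9, mCtx against mESC 10 in chromatin and 5 in nucleoplasm, mCtx against mNPC nucleoplasm 19, and interactions 3 and 0. It turned 11 named differences: in chromatin against cytoplasm of mESC tRNA-Arg-ACG-1-3-tRF3 (-2.1), tRNA-His-GTG-2-1-tRF5 (-1.71), tRNA-His-GTG-2-3-tRF3 (-1.54) and tRNA-Thr-AGT-6-1-tRF5 (-1.06). In mNPC against mESC these were tRNA-Asp-GTC-1-11-tRF3 in chromatin (1.75) and tRNA-His-GTG-2-1-tRF5 in chromatin (1.55) and nucleoplasm (2.16). In mCtx against mNPC they were tRNA-Ala-AGC-2-1-tRF3 (-0.40), tRNA-Asp-GTC-1-11-tRF3 (-0.84) and tRNA-His-GTG-2-3-tRF3 (-0.76) in nucleoplasm and tRNA-Thr-TGT-2-1-tRF3 (-0.087) in chromatin. The cause was not tested.

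A common floor of 59.1 RPM left 79 of the 108 named differences on their side of the threshold and 29 short of it. It gave counts of 3, 1 and 2 for nucleoplasm against cytoplasm in mESC, mNPC and mCtx, 7 for mNPC against mESC nucleoplasm, and 3 and 2 for mCtx against mNPC in nucleoplasm and cytoplasm. A pseudocount of 10 left 1 call for nucleoplasm against cytoplasm in mCtx, and a filter of 50 RPM left 1 in the second interaction. Among reads outside snoRNAs, tRF5 held 2.99%, 0.494% and 0.202% in chromatin of mESC, mNPC and mCtx, and tRF3 1.94%, 1.16% and 0.397%. With the full RPM total as denominator, tRF5 held 0.131% in mCtx chromatin and tRF3 0.681% in mNPC and 0.257% in mCtx chromatin. With the identical asparagine entries counted once, chosen after seeing the data, tRF5 held 0.25% in mNPC chromatin, 0.123% in mCtx chromatin and 0.00676% in mCtx nucleoplasm, and in mNPC cytoplasm 0.00875% in place of 0.016%.

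Leaving out 1 library at a time gave 8 to 18 calls for chromatin against nucleoplasm in mESC, the lowest without mESC chromatin replicate 3. It gave 2 to 5 for nucleoplasm against cytoplasm in mCtx (lowest without mCtx cytoplasm replicate 1) and 2 to 5 for mCtx against mNPC chromatin (lowest without mCtx chromatin replicate 2). The interactions gave 5 to 11 (lowest without mESC cytoplasm replicate 2) and 1 to 3 (lowest without mCtx chromatin replicate 1 or 2). Without 1 library, tRF5 held 0.87% to 2.01% and tRF3 0.594% to 1.26% of mESC chromatin reads. Depth is unknown, and what lies under a library's lowest listed value cannot be seen.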
